A study of Mus musculus with 24 samples.

Results

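The 10 genes described here encode the main histone acetyltransferases of the mouse: Hat1, Kat2a, Kat2b, Kat5, Kat6a, Kat6b, Kat7, Kat8, Ep300 and Crebbp. They were chosen by name, as enzymes that use nuclear acetyl-CoA, and all 10 were found among the 46981 genes of the table. Their RNA was sequenced in 24 libraries made from CD4 T cells of mice, 12 in each of 2 cohorts. In the Acly cohort, T cells of CD4-Cre Aclyfl/fl mice (knockout, KO) were compared with wild type (WT) cells. In the Pdha1 cohort, cells of Pdha1fl/fl CD4CreERT2 mice (KO) were compared with WT cells of that cohort. Cells of each genotype were either resting, with no treatment, or activated through CD3 and CD28 for 24 h, with 3 libraries per group and 8 groups. The labels give 15% serum and 2 mM glutamine for all 24 libraries. The CD4 promoter that drives Cre is active in developing T cells, including those that become CD8 T cells, and CreERT2 needs an inducer. The labels give no induction schedule and no age, and do not say whether WT mice carried a floxed or Cre allele. They do not say that replicates came from separate animals either, so each p-value reflects only how far these samples spread, which may be technical variation.

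Histone acetyltransferases move the acetyl group of acetyl-CoA onto lysines of histone tails, which loosens chromatin and creates docking sites for bromodomain proteins. Much of the acetyl-CoA of the cytosol and nucleus is made from citrate by ATP-citrate lyase, the product of Acly, and Pdha1 encodes a subunit of the pyruvate dehydrogenase complex, which makes acetyl-CoA from pyruvate. T cell activation opens chromatin at cytokine and cell cycle genes and starts DNA replication, which requires newly made, acetylated histones.

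Values are RPM, reads scaled to a total of 1000000 and so a share of each library. In bulk samples such as these, fewer cells of a type and less RNA per cell cannot be told apart. Libraries held 388902 to 1087675 recovered counts, so that 1 count equalled 0.677 to 2.28 RPM. A total of 3 counts, the limit that a count of 0 allows, lay between 2.03 and 6.83 RPM. Kat2a was below that limit in 8 of 24 libraries, Kat5 in 6, Kat2b in 4, and Hat1 and Kat6b in 1 each; the other 5 members were above it in every library. Which stretch of a transcript the reads cover is not known here, so levels are compared between groups and not between genes. Each of 13 CD4 T cell markers was above 0 in at least 1 library of every group. Their sum was 269 to 1887 RPM in resting and 521 to 3488 RPM in activated libraries of the Pdha1 cohort. In the Acly cohort it was 719 to 1504 RPM in resting and 3495 to 4812 RPM in activated libraries. There 6 myeloid markers summed to 49.2 to 82.2 and 13.2 to 36.4 RPM. For 6 B cell markers the sums were 36.2 to 61.6 and 73.2 to 112 RPM, and for 6 CD8 and NK markers 25.6 to 34.3 and 28.2 to 62.8 RPM. Itgam and Csf1r had resting medians of 29.6 and 23.0 RPM, the other myeloid markers 0.58 to 2.47 RPM. The median of the B cell marker Ighm went from 20.8 to 86.9 RPM. The part of all these markers in the activation changes below was not tested. Globin and other erythroid markers summed to 597 to 32766 RPM in the Pdha1 cohort and 20.3 to 1197 RPM in the Acly cohort. The 1685 olfactory and vomeronasal receptor genes, which serve smell and pheromone sensing, summed to 95330 to 109575 RPM in resting and 30101 to 40962 RPM in activated libraries of the Acly cohort.

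The deleted gene Acly stood at 104, 111 and 109 RPM in the 3 activated WT libraries and at 11.3, 10.6 and 15.0 RPM in the 3 activated Acly KO libraries, a log2 change of -3.10 ± 0.44 (SE; limma, adjusted p = 0.000429). In resting cells it was at 5.80, 9.87 and 8.94 RPM in WT and 8.0, 1.06 and 5.04 RPM in KO, groups that overlapped. Pdha1 levels overlapped between the genotypes of its own cohort: Pdha1 was at 84.7, 40.8 and 5.35 RPM in activated libraries labelled WT and at 30.4, 27.4 and 19.996 RPM in those labelled KO (log2 change -0.07 ± 1.34, limma adjusted p = 1.00). The overlap in activated cells came from WT replicate 3, at 5.35 RPM, a library that stood apart (below). Without it both other WT values lay above the highest KO value of 30.4 RPM. Acly, not deleted in this cohort, did the same: 68.6 and 32.0 RPM in WT, at most 31.2 RPM in KO. At rest the Pdha1 groups overlapped with and without KO replicate 3. The deletion was not established at the RNA level. The counted part of the transcript may lie outside the deleted exons. The parts of induction, labels and activation strength were not tested. The words WT and KO in the Pdha1 cohort stand for labels only. In that cohort the library labelled WT activated replicate 3 held 105375 receptor RPM and the library labelled KO resting replicate 3 held 66286, against 103462 to 108363 in the 5 other resting and 26381 to 89326 in the 5 other activated libraries. Each of them stood nearer to the other state in these sums, and the calls of the Pdha1 cohort are given with and without both. The 6 activation markers Cd69, Il2ra, Myc, Tfrc, Mki67 and Nr4a1 summed to 46.9 to 85.9 RPM in resting and 782 to 1104 RPM in activated Acly libraries. In Pdha1 libraries labelled WT the sums were 99.0 to 106 RPM at rest and 83.8 to 1185 RPM after activation. In those labelled KO they were 91.4 to 536 and 315 to 451 RPM, so the states overlapped under both labels.

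Activation set the members apart in the Acly cohort. Hat1, Kat2a, Kat5 and Kat7 rose in both genotypes, Kat6b fell in both, Crebbp fell in KO, and the others did not pass the test. By limma with adjusted p under 0.05, 4 of 10 members were higher and 1 lower in WT, and 4 were higher and 2 lower in KO. The split of the calls moved with the scaling. In WT it was 6 higher and 0 lower with TMM-style scaling and edgeR, 4 and 0 with DESeq2, 3 and 3 with quantile normalization, and 3 and 4 with protein-coding scaling. The KO split was 5 and 0 with TMM-style scaling, edgeR and DESeq2, 4 and 3 with quantile normalization, and 3 and 4 with protein-coding scaling. Over all 31311 genes tested the same rule called 21.4% higher and 23.8% lower in WT, and 20.7% higher and 26.7% lower in KO. Among 16571 protein-coding genes outside the receptor families it called 30.0% higher and 19.7% lower in WT, and 28.3% higher and 22.1% lower in KO. The members' median log2 change was 0.33 in WT and 0.11 in KO, beside -0.61 and -0.67 over all genes tested and -0.07 and -0.18 over the protein-coding genes. These medians move with the scaling: for all genes in WT they were -0.29 after TMM-style scaling and -0.89 after scaling to protein-coding genes. Of all genes called in WT, 47.4% were higher with RPM, 63.1% with TMM-style scaling and 34.8% with protein-coding scaling.

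**Figure D1:**
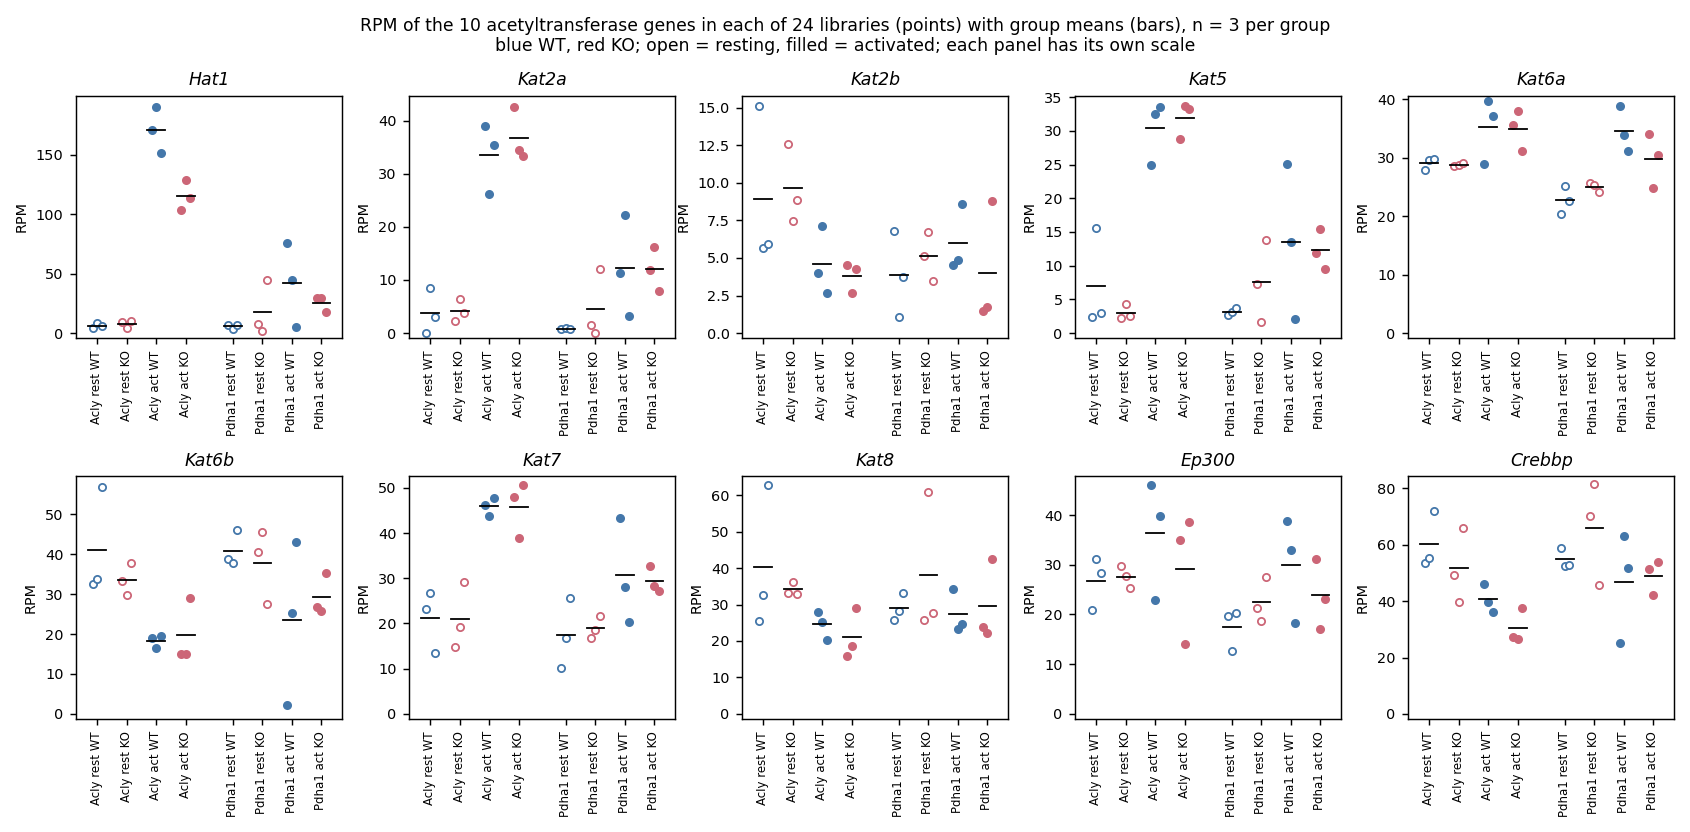
RPM (vertical axes, linear, separate scale per gene) of the 10 genes in each library, by cohort, state and genotype on the horizontal axes; points are libraries, bars are means of 3. In the Acly cohort the 6 activated libraries lie above the 6 resting libraries for Hat1, Kat2a, Kat5 and Kat7 and below them for Kat6b.

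Hat1, on chr2:71388958-71441622 (+ strand, GRCm38), encodes the type B enzyme that acetylates newly made histone H4 before it is deposited on DNA. In the Acly cohort it was at 4.64, 8.46 and 5.96 RPM in resting WT libraries and at 171, 190 and 151 RPM in activated WT libraries. In KO it was at 9.14, 4.26 and 10.1 RPM at rest and at 104, 128 and 114 RPM after activation. Every activated library was above every resting library, with no overlap in either genotype. The fitted change was 4.67 ± 0.32 on the log2(RPM + 0.5) scale in WT (limma adjusted p = 2.31e-15), or 25.5-fold, and 3.87 ± 0.32 in KO (adjusted p = 4.65e-13), or 14.7-fold. It stood at the 98.9th percentile of all changes in WT and at the 97.2nd in KO. Hat1 made up 2.60% ± 0.72 (SD, n = 3) of the summed RPM of the 10 genes in resting WT libraries and 38.7% ± 3.69 in activated ones. In KO its share went from 3.48% ± 1.21 to 31.4% ± 4.55.

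The GNAT enzymes Kat2a and Kat2b, also called GCN5 and PCAF, are alternative catalytic subunits of the SAGA and ATAC coactivator complexes, which act on histone H3. Kat2a (chr11:100704746-100712465, - strand) was at 0, 8.46 and 2.98 RPM in resting WT libraries and at 39.1, 26.1 and 35.4 RPM in activated ones. In KO it was at 2.28, 6.39 and 3.78 RPM at rest and at 42.6, 34.5 and 33.3 RPM after activation. The states did not overlap. Its log2 change was 3.75 ± 0.74 in WT (limma adjusted p = 0.000644) and 3.09 ± 0.74 in KO (adjusted p = 0.00282). Since resting values lay at 0 to 6 counts, the size is loose: without WT resting replicate 1 the WT change was 2.59 and without WT resting replicate 2 it was 4.67. With a pseudocount of 0.1 the KO change did not pass (adjusted p = 0.0899). Kat2a lies 176746 bp from Acly on chromosome 11.

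Kat2b (chr17:53566861-53672720, + strand) went the other way in its values. It was at 15.1, 5.64 and 5.96 RPM in resting and 3.99, 7.11 and 2.64 RPM in activated WT libraries, which overlapped. In KO it was at 12.6, 7.45 and 8.83 RPM at rest and at 4.53, 2.64 and 4.28 RPM after activation, without overlap. The KO change of -1.23 ± 0.54 did not pass (limma adjusted p = 0.0599). It passed in 6 of 25 alternative fits, among them the replicate number as a block (limma adjusted p = 0.0474) and protein-coding scaling (0.00865). All these values rest on 3 to 13 counts.

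The MYST enzymes Kat5, Kat6a, Kat6b, Kat7 and Kat8 are the catalytic subunits of complexes that differ in their targets. Kat5 (chr19:5603014-5610237, - strand), also called TIP60, acetylates histones H4 and H2A and acts in the DNA damage response. It was at 2.32, 15.5 and 2.98 RPM in resting WT libraries and at 25.0, 32.5 and 33.6 RPM in activated ones. In KO it was at 2.28, 4.26 and 2.52 RPM at rest and at 28.8, 33.6 and 33.3 RPM after activation. Activated libraries lay above resting ones throughout, with 1 resting WT library, replicate 2, well above the other 5. The log2 change was 2.50 ± 0.48 in WT (limma adjusted p = 4.04e-05), or 3.29 without that library, and 3.24 ± 0.48 in KO (adjusted p = 4.62e-07). Kat5 overlaps Rnaseh2c on the opposite strand, and whether counting used strand is not given in the sources used here, so their reads may not be separate. On the same strand, Kat6a overlaps Gm45555 and Crebbp overlaps Gm37186, with means of 8.09 and 6.31 RPM, and their reads may not be separate either. Genes overlapping Hat1, Kat2b, Kat8 and Ep300 had means of at most 1.58 RPM.

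Kat7 (chr11:95274259-95310246, - strand), also called HBO1, acetylates histone H3 and H4 around replication origins and gene starts. It was at 23.2, 26.8 and 13.4 RPM in resting and 46.1, 43.7 and 47.8 RPM in activated WT libraries. In KO it was at 14.9, 19.2 and 29.1 RPM at rest and at 47.9, 39.0 and 50.5 RPM after activation. The states did not overlap, and the log2 changes were 1.15 ± 0.32 in WT (limma adjusted p = 0.00345) and 1.15 ± 0.32 in KO (adjusted p = 0.00349). After scaling to protein-coding genes the changes did not pass (adjusted p = 0.088 in WT and 0.11 in KO), and after quantile normalization the WT change did not (adjusted p = 0.0574).

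Kat6b (chr14:21481434-21672478, + strand), also called MORF, forms with Kat6a a pair of enzymes that acetylate histone H3 in complexes with BRPF scaffold proteins. It was at 32.6, 33.9 and 56.8 RPM in resting and 19.0, 16.6 and 19.4 RPM in activated WT libraries. In KO it was at 33.2, 29.9 and 37.9 RPM at rest and at 15.1, 15.0 and 28.9 RPM after activation. All 6 activated libraries lay below all 6 resting ones. The log2 change was -1.10 ± 0.33 in WT (limma adjusted p = 0.00671) and -0.82 ± 0.33 in KO (adjusted p = 0.0395). Of all genes tested, 35.9% in WT and 46.5% in KO had a lower value. The WT call was lost with TMM-style scaling (adjusted p = 0.0883), edgeR (0.0918) and DESeq2 (0.0929), and the KO call was lost in 9 of 25 alternatives, among them the leaving out of KO resting replicate 1 or 3 or KO activated replicate 1 or 2 (adjusted p = 0.0757, 0.11, 0.154 and 0.154).

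Its partner enzyme Kat6a (chr8:22859535-22943259, + strand), also called MOZ, varied little: it ranged from 27.9 to 29.8 RPM over the 6 resting libraries and from 29.0 to 39.7 RPM over the 6 activated ones, and did not pass the test in either genotype (limma adjusted p = 0.482 in WT and 0.464 in KO). Kat8 (chr7:127912516-127925837, + strand), also called MOF, acetylates histone H4 at lysine 16 in the MSL and NSL complexes. It was at 25.6, 32.5 and 62.8 RPM in resting and 28.0, 25.3 and 20.3 RPM in activated WT libraries, and in KO at 33.2, 36.3 and 32.9 RPM at rest and 15.9, 18.6 and 28.9 RPM after activation. The WT groups overlapped and the KO groups did not. The KO change of -0.72 ± 0.34 did not pass (limma adjusted p = 0.0716). It passed in 6 of 25 alternative fits and turned to 0.66 in 1. Limma adjusted p was 0.0461 with the replicate number as a block, 0.0027 with protein-coding scaling and 0.0173 with quantile normalization.

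Ep300 and Crebbp encode p300 and CBP, large related coactivators that acetylate histone H3 at lysine 27 at enhancers and bind many transcription factors. Ep300 (chr15:81585351-81652077, + strand) ranged from 20.9 to 31.1 RPM in the 6 resting and from 14.1 to 46.1 RPM in the 6 activated libraries, and did not pass (limma adjusted p = 0.363 in WT and 0.935 in KO). Crebbp (chr16:4081328-4213997, - strand) was at 53.6, 55.2 and 71.9 RPM in resting and 46.1, 39.7 and 36.3 RPM in activated WT libraries, and in KO at 49.4, 39.5 and 65.9 RPM at rest and 27.3, 26.5 and 37.6 RPM after activation. Neither genotype's groups overlapped. The change in WT was -0.55 ± 0.29 and did not pass (limma adjusted p = 0.111), though it passed at -1.14 with quantile normalization (adjusted p = 0.000553) and at -1.04 with protein-coding scaling (adjusted p = 0.00411). That in KO was -0.74 ± 0.29 (adjusted p = 0.0324). The WT value stood at the 51.6th and the KO value at the 48.2nd percentile of all changes, close to the median gene. The KO call was lost in 9 of 25 alternatives, including TMM-style scaling (adjusted p = 0.50), edgeR (0.561), DESeq2 (0.565) and the leaving out of KO resting replicate 1 or 3 or KO activated replicate 1 or 2 (0.0607, 0.157, 0.103 and 0.11). In the summed RPM of the 10 genes, the share of Crebbp went from 24.7% ± 2.03 to 9.23% ± 0.84 in WT and from 23.1% ± 3.74 to 8.21% ± 1.02 in KO (SD, n = 3). A share also falls where the sum rises. In WT the mean of Crebbp itself went from 60.2 to 40.7 RPM, while the sum went from 245 to 440 RPM and Hat1 from 6.35 to 171 RPM.

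**Figure D2:**
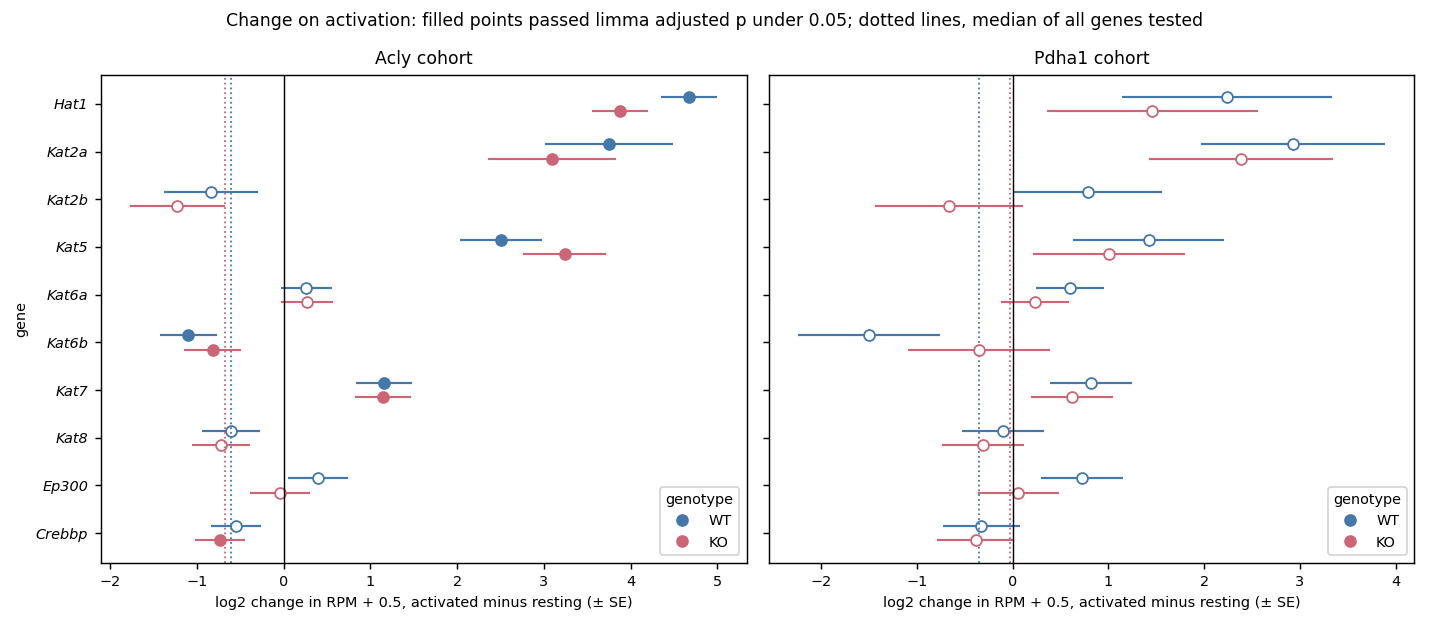
Log2 change in RPM + 0.5 from resting to activated cells (horizontal axis, ± SE) for each gene (vertical axis), WT in blue and KO in red, with the Acly cohort on the left and the Pdha1 cohort on the right; dotted lines mark the median of all genes tested. In the Acly cohort 5 genes in WT and 6 in KO passed the test (filled points), and in the Pdha1 cohort none did.

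The summed RPM of the 10 genes was 245 ± 37.6 in resting and 440 ± 15.3 in activated WT libraries of the Acly cohort, and 222 ± 21.4 and 369 ± 27.2 in KO (SD, n = 3). The bar chart of shares gives the make-up of this sum in each group, where a share is compared between groups for 1 gene at a time.

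**Figure D3:**
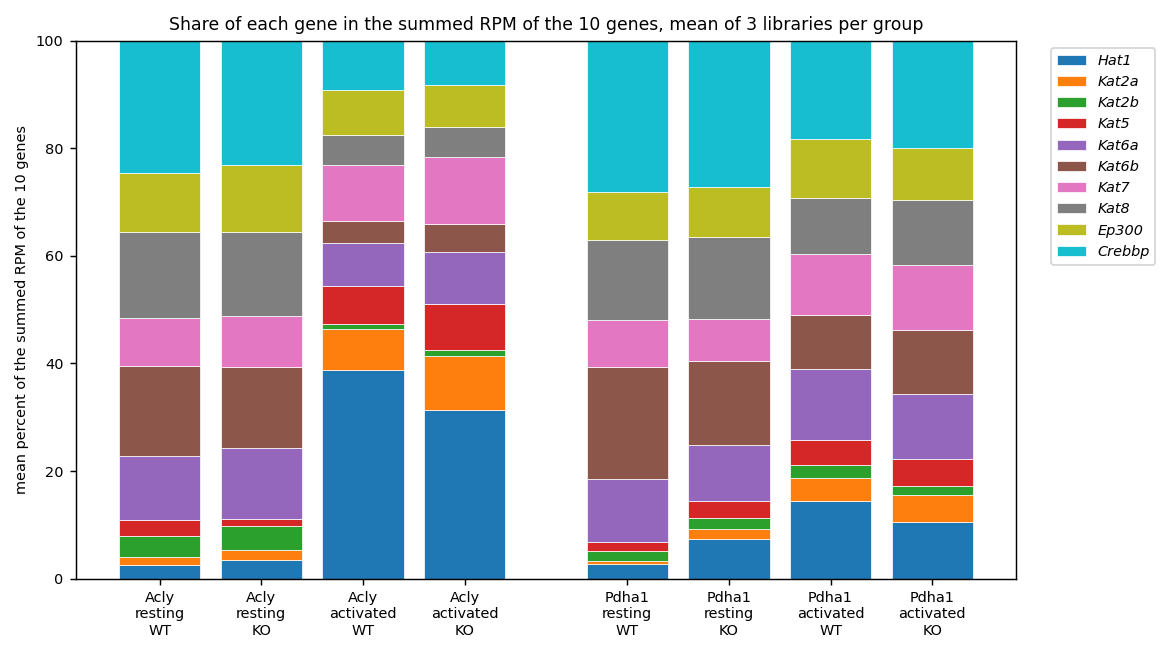
Mean share (percent, vertical axis) of each gene in the summed RPM of the 10 genes, per group of 3 libraries (horizontal axis). Hat1 takes 38.7% in activated WT and 31.4% in activated KO of the Acly cohort, against 2.60% and 3.48% at rest.

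The receptor gene sum differed between the states, and members varied in how closely they followed it. Over 24 libraries the Pearson correlation of log2(RPM + 0.5) with the log2 receptor sum was -0.92 for Hat1, -0.87 for Kat5, -0.84 for Kat7, -0.78 for Kat2a, -0.71 for Kat6a and -0.45 for Ep300. It was 0.81 for Kat6b, 0.80 for Crebbp, 0.46 for Kat8 and 0.28 for Kat2b; these points share library and state, and the values are a description. With the receptor sum as a covariate no member passed the test in either genotype of either cohort. With it the changes in the Acly cohort were 3.76 for Hat1, 2.66 for Kat2a, 1.31 for Kat5 and 1.39 for Kat7 in WT. They were 2.90, 1.94, 1.98 and 1.40 in KO (limma adjusted p from 0.666 to 0.952 over both genotypes). The changes of Kat6b and of Crebbp turned to positive values. The typical gene moved as well: in that WT fit the median over all genes was 0.92, against -0.61 without the covariate. Over protein-coding genes it was 1.11, against -0.07. That fit called 10 of 31311 genes higher and 1 lower. In the Acly cohort the receptor sums of the states do not overlap, so the covariate and activation cannot be told apart there. The part of the receptor reads in the falls of Kat6b and Crebbp was not tested.

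**Figure D4:**
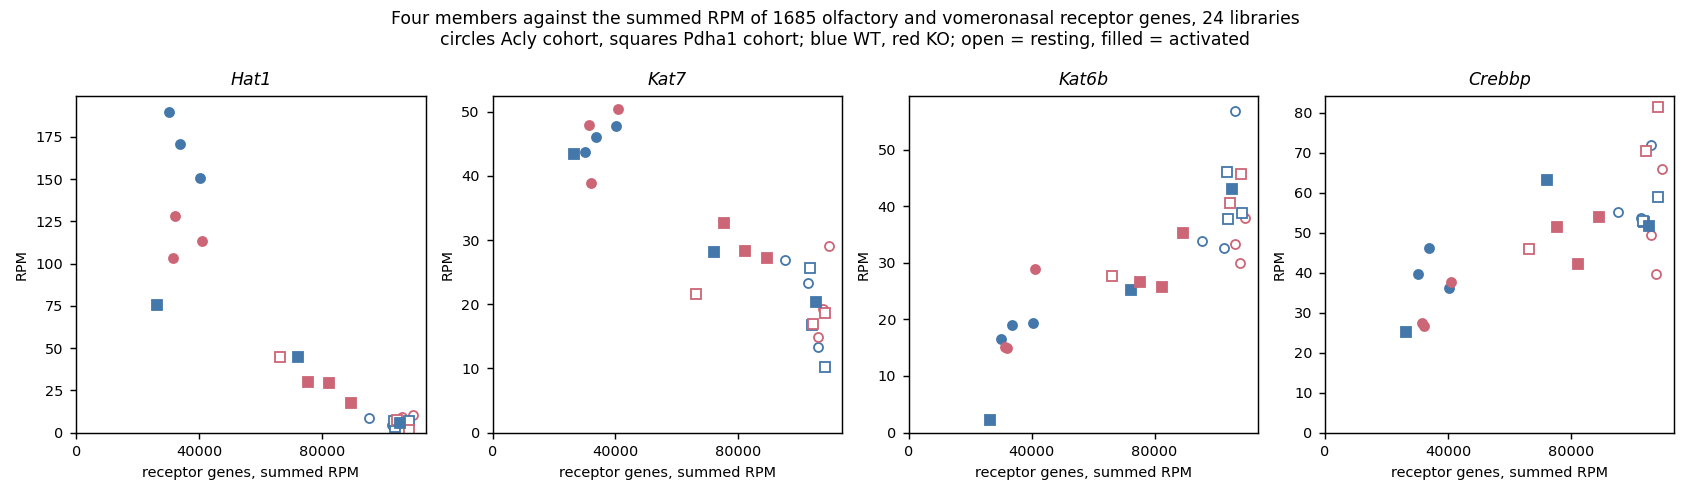
RPM of Hat1, Kat7, Kat6b and Crebbp (vertical axes) against the summed RPM of 1685 receptor genes (horizontal axes) in 24 libraries; circles mark the Acly and squares the Pdha1 cohort, blue WT and red KO, open resting and filled activated libraries. Hat1 and Kat7 are high where the receptor sum is low, and Kat6b and Crebbp are high where it is high.

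Upstream sequence is shown for members that moved and have a stretch of at least 180 bases before the RefSeq start without an annotated exon: Kat2a and Kat7, which rose, and Kat6b, which fell. The windows come from the RefSeq promoter table (GRCm38.p6), which held 9 of the 10 members, all but Kat6a, and run 5′ to 3′ on the gene's strand. Capitals mark TGACG, the core of the cyclic AMP response element bound by CREB, the partner for which CBP is named, and GGGCGG, the SP1 box, on either strand. The Kat2a window is chr11:100712468-100712717 (- strand), the Kat7 window chr11:95310247-95310428 (- strand) and the Kat6b window chr14:21499520-21499769 (+ strand), the last inside the annotated span of Kat6b.
Kat2a: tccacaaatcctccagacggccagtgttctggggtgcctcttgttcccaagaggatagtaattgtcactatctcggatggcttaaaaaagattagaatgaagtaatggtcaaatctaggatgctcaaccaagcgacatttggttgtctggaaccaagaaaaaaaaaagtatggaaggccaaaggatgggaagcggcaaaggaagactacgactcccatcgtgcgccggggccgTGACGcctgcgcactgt
Kat7: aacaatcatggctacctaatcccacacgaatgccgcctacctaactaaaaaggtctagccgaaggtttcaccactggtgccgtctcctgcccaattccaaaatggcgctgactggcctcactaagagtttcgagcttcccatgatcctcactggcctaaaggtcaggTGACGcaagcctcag
Kat6b: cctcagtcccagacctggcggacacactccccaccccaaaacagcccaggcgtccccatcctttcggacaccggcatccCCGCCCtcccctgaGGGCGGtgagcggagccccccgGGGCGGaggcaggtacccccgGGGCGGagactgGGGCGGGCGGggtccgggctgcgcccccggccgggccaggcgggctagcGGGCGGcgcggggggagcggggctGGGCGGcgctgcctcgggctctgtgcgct
The Kat2a and Kat7 windows each hold 1 TGACG and no GGGCGG, and the Kat6b window holds 8 GGGCGG and no TGACG. Over the 250 bases before each start, on either strand, 7 motifs were searched. The table has 13 entries for the 9 members, and a member counts where any of its entries matched, whereas the share over the table is per entry. TGACG was found for 5 of 9 members (Kat2a, Kat2b, Kat5, Kat7 and Kat8; 6 of 13 entries) and in 17.8% of 32851 promoters of the table. GGGCGG was found for 6 of 9 members (Hat1, Kat5, Kat6b, Kat8, Ep300 and Crebbp; 8 of 13 entries) and in 32.7% of promoters. CACGTG, the E-box, was found for Hat1 and Kat5 (2 of 13 entries) and in 6.02% of promoters, and CCGGAAG, an ETS factor core, for Hat1 (1 of 13) and in 6.91%. CCAAT was found for 5 of 9 members (6 of 13 entries) and in 33.8%, GGCGC, an E2F core that can overlap GGGCGG, for 8 of 9 (9 of 13) and in 32.0%, and GGAAA, an NFAT core, for 4 of 9 (5 of 13) and in 55.6%. These are matches of letters and not binding sites.

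Genes whose products work with the acetyltransferases were counted in 5 lists, chosen like the members with earlier results of these data known. The counts stand beside 30.0% of protein-coding genes outside the receptor families called higher and 19.7% lower on activation in WT. In KO these shares were 28.3% and 22.1%. Of 32 partners of the MYST enzymes, 21 were higher and 2 lower on activation in WT cells of the Acly cohort, and 19 higher and 4 lower in KO, with median log2 changes of 1.26 and 1.19. Ruvbl2, an ATPase of the Kat5 complex, went from 6.16 ± 1.47 RPM in resting to 346 ± 59.4 RPM in activated WT libraries and from 9.83 ± 2.68 to 257 ± 12.1 RPM in KO (SD, n = 3). Yeats4, a reader of acylated histones in that complex, went from 12.8 ± 4.85 to 117 ± 10.5 RPM in WT and from 6.98 ± 1.64 to 139 ± 22.1 RPM in KO. Hcfc1, a scaffold shared with the Kat8 NSL complex, went from 10.1 ± 1.36 to 119 ± 35.7 RPM in WT.

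Of 9 Hat1 and histone chaperone partners, 8 were higher and none lower in both genotypes, with medians of 2.73 in WT and 2.75 in KO. Rbbp7, the histone-binding subunit that works with Hat1, went from 5.80 ± 5.03 to 116 ± 5.46 RPM in WT and from 3.82 ± 0.42 to 98.3 ± 10.4 RPM in KO. Asf1b, a chaperone that hands on new histones H3 and H4, went from 2.62 ± 1.08 to 68.2 ± 7.19 RPM in WT and from 4.18 ± 1.007 to 69.1 ± 8.77 RPM in KO. Of 21 SAGA and ATAC partners of Kat2a and Kat2b, 8 were higher and none lower in WT, and 8 higher and 1 lower in KO. Of protein-coding genes, 30.0% were called higher in WT and 28.3% in KO, so these counts are not read as a result about the complexes. The subunit Taf10 went from 20.3 ± 9.63 to 164 ± 3.02 RPM in WT and from 10.4 ± 1.89 to 169 ± 13.2 RPM in KO.

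Of 22 acetyl-lysine readers and p300 and CBP partner factors, 15 were higher and 2 lower in WT, and 13 higher and 3 lower in KO. Nfatc1, a calcium-regulated factor of T cell activation, went from 11.05 ± 2.28 to 74.5 ± 4.10 RPM in WT and from 8.94 ± 2.11 to 63.8 ± 2.54 RPM in KO. Smarca2, a bromodomain ATPase, fell from 134 ± 41.4 to 43.0 ± 4.34 RPM in KO. Of 18 other proteins described with acetyltransferase activity, 9 were higher and 1 lower in each genotype. Naa10, the catalytic subunit of an N-terminal acetyltransferase, went from 3.62 ± 3.00 to 87.0 ± 5.24 RPM in WT and from 4.24 ± 0.81 to 71.2 ± 7.27 RPM in KO. All changes named from these lists passed limma's adjusted p under 0.05 over all genes. Over all genes 21.4% were called higher and 23.8% lower in WT, and 20.7% and 26.7% in KO. Among protein-coding genes the shares were 30.0% and 19.7% in WT, and 28.3% and 22.1% in KO.

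Loss of Acly moved no member past the test. In activated cells 0 of 10 members were called between KO and WT, beside 0.00639% of 31311 genes (2 genes, Acly among them), and at an unadjusted p under 0.05 there was also none of 10, beside 1087 of all genes. edgeR and DESeq2 on recovered counts called none either. The lowest value was that of Hat1, at 104, 128 and 114 RPM in the 3 KO libraries and 171, 190 and 151 RPM in the 3 WT libraries. Every KO library lay below every WT library, and the log2 change was -0.56 ± 0.32 (95% interval -1.22 to 0.09; limma adjusted p = 1.00; -0.65 to -0.43 over 25 alternatives, with adjusted p from 0.194 to 1.00). Crebbp was at 27.3, 26.5 and 37.6 RPM in KO and 46.1, 39.7 and 36.3 RPM in WT, lower in 8 of 9 pairs of libraries, with a log2 change of -0.42 ± 0.29 (interval -1.003 to 0.16; adjusted p = 1.00). Ep300 was at 34.9, 14.1 and 38.6 RPM in KO and 46.1, 23.0 and 39.8 RPM in WT, with a change of -0.37 ± 0.35 (interval -1.08 to 0.33; adjusted p = 1.00) that became 0.076 without KO activated replicate 2. It was lower in KO in each of the 3 pairs of libraries with the same number, and leaving out that library keeps WT activated replicate 2, which was also low. For the 9 members other than Hat1 the groups overlapped. The share of all genes whose groups do not overlap was not counted, here or for activation. Separate groups are therefore a description of the values only. The members' median was -0.09, beside -0.05 over all genes and -0.11 over protein-coding genes.

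**Figure D5:**
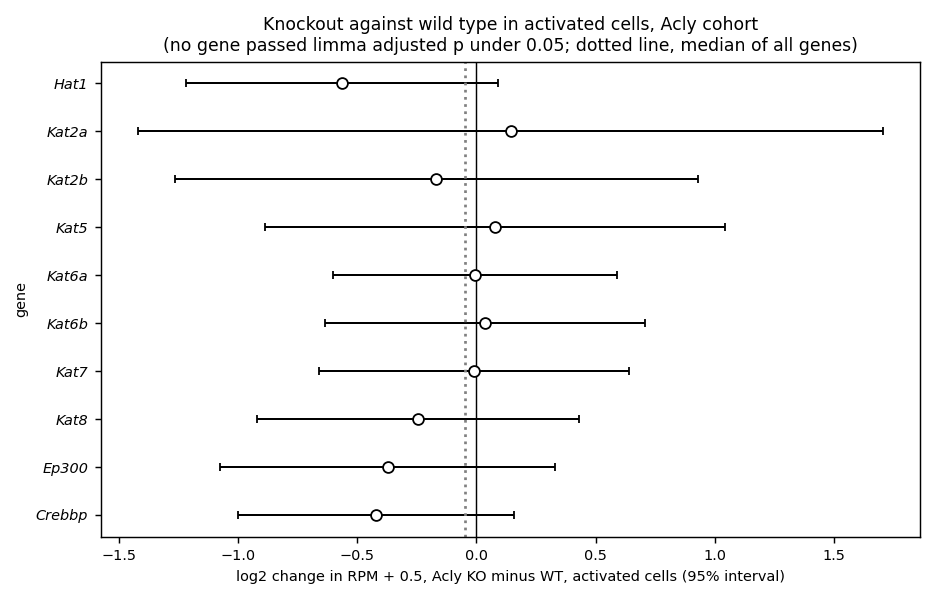
Log2 change in RPM + 0.5 between Acly KO and WT in activated cells (horizontal axis, with 95% intervals) for each gene (vertical axis); the dotted line marks the median of all genes tested. All 10 intervals include 0, and Hat1, at -0.56, is the lowest value.

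In resting cells of the Acly cohort 0 of 10 members and 0% of 31311 genes were called between KO and WT, and the groups of all 10 members overlapped. At an unadjusted p under 0.05 there were 0 members and 1745 of all genes. The test of whether activation acted differently in KO and WT called 0 members and 0% of genes. For Hat1, whose rise was 25.5-fold in WT and 14.7-fold in KO, this difference was -0.80 ± 0.46 on the log2 scale (95% interval -1.73 to 0.13; limma adjusted p = 1.00), so the smaller rise in KO was not past the test. None of the 102 partner genes passed between KO and WT in either state or in that interaction.

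The Pdha1 cohort gave no call in any comparison: 0 of 10 members and 0% of 30357 genes were called for activation in libraries labelled WT or KO, for KO against WT at rest or after activation, or for the interaction. At an unadjusted p under 0.05, 1 of 10 members passed for activation in WT, beside 4315 of all genes, and 1 of 10 in KO, beside 873. For KO against WT none of 10 passed at rest, beside 636 of all genes, or after activation, beside 856. edgeR called no member in the activation comparisons, and DESeq2 called 2 in WT and none in KO. Hat1 was at 6.78, 3.14 and 6.76 RPM in resting and 75.5, 44.7 and 5.35 RPM in activated libraries labelled WT. In those labelled KO it was at 7.33, 1.69 and 44.9 RPM at rest and at 29.7, 29.2 and 17.6 RPM after activation. Replicate 3 stood apart in both cases: its activated WT value lay within the resting values, and its resting KO value lay above all 3 activated KO values. Kat2a was at 0.677, 1.04 and 0.75 RPM in resting and 11.4, 22.3 and 3.21 RPM in activated WT, and at 1.46, 0 and 12.04 RPM in resting and 11.8, 16.3 and 7.98 RPM in activated KO libraries.

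With all libraries the WT activation changes were 2.24 ± 1.098 for Hat1, 2.93 ± 0.96 for Kat2a, 1.42 ± 0.79 for Kat5 and -1.50 ± 0.74 for Kat6b (limma adjusted p = 0.354, 0.348, 0.363 and 0.354). Without WT activated replicate 3 these 4 members passed (adjusted p = 0.0439, 0.0267, 0.0347 and 0.0356), with changes of 3.34, 3.65, 2.37 and -2.29, beside 9.48% of 29393 genes called higher and 5.28% lower in that fit. Leaving out any other single library gave no call, and without WT activated replicate 1 the changes of Hat1, Kat5 and Kat6b shrank to 1.49, 0.73 and -0.30. Kat6b was at 38.9, 37.8 and 46.1 RPM in resting and 2.28, 25.2 and 43.0 RPM in activated WT libraries, and the value of 2.28 is 1 count in the shallowest library. Without both libraries that stood apart, the same 4 members passed in WT, and Hat1 and Kat2a passed in KO (adjusted p = 0.0054 and 0.00493), where with all libraries their changes were 1.46 ± 1.098 and 2.38 ± 0.96 (adjusted p = 0.978 for each). In that fit 14.9% of 29032 genes were called higher and 12.1% lower in WT, and 7.00% higher and 0.152% lower in KO. Both libraries were set aside for their receptor sums, which follow Hat1, Kat2a, Kat5 and Kat6b, so that leaving them out enlarges these changes by construction and is no independent support for them. The sign of each of these 4 members in WT was that seen in the Acly cohort. The cohorts were fitted separately and no difference between them was tested.

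Between activated libraries labelled KO and WT in the Pdha1 cohort, the members' changes ran from -0.86 ± 0.77 for Kat2b, at 1.48, 1.71 and 8.78 RPM in KO and 4.56, 4.83 and 8.57 RPM in WT, to 1.013 ± 0.74 for Kat6b, at 26.7, 25.7 and 35.3 RPM in KO (limma adjusted p = 1.00 for both). The Kat2b value ran from -1.58 to -0.47 when 1 library was left out, and the Kat6b value turned to -0.18 without WT activated replicate 1. Without both libraries that stood apart these changes were -0.60 and 1.80 (limma adjusted p = 0.704 and 0.239). No member was then called for KO against WT at rest, beside 0.00344% of genes, after activation, beside 0.00689%, or for the interaction, beside 0.00689%. The groups of all 10 members overlapped in both states. Crebbp was at 58.9, 52.6 and 53.0 RPM in resting and 25.1, 63.3 and 51.7 RPM in activated WT libraries, and at 70.4, 81.5 and 45.8 RPM and 51.3, 42.1 and 53.9 RPM in KO. The summed RPM of the 10 genes was 196 ± 17.8 in resting and 266 ± 50.4 in activated WT libraries and 244 ± 19.97 and 245 ± 18.9 in KO (SD, n = 3). Without the 2 libraries that stood apart it was 296 ± 5.02 in activated WT and 241 ± 27.6 in resting KO (SD, n = 2).

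For the 2 members with the highest mean RPM over the 24 libraries, the genes most like them were sought among 11613 genes with a mean of at least 10 RPM, by the Pearson correlation of log2(RPM + 0.5) over the 24 libraries. Those nearest to Hat1 were Eif3l (0.985), a translation initiation factor subunit, Stt3b (0.983), a subunit of oligosaccharyltransferase, and Tubb5 (0.983), a beta tubulin. Those nearest to Crebbp were Gm43323 (0.914), Zfp277 (0.90), a zinc finger gene, and Fads6 (0.896), of the fatty acid desaturase domain family. The libraries share depth and state, so these values describe a common pattern over the 24 libraries.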

How the data were processed

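RNA of 24 libraries was read from a single end with a kit for stranded total RNA, per the labels' protocols. The authors deposited 1 table of 46981 mouse genes by 24 libraries in RPM, each column summing to 1000000; the submitters' processing notes name GRCm38 and mm10, while aligner, counter and annotation were not given in the sources used here. Counts were recovered from the RPM by inverting the adjustment for repeated use of 4096 possible identifiers, each 6 bases long: 100% of values came out whole within 0.01. Symbols and positions come from GENCODE M21 (GRCm38), and all 10 members and 102 partner genes matched. Members and lists were chosen with earlier results of these data known.

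The main test was limma 3.58.1 in R 4.3.3 (trend and robust) on log2(RPM + 0.5), which understates changes of low genes, for genes that reached 1 RPM in 3 or more libraries of the cohort. The 4 groups of a cohort entered 1 fit, cohorts were fitted separately, and p-values were adjusted by Benjamini-Hochberg over all genes, with 0.05 as the threshold. All 10 members passed the filter in both cohorts. Values after ± are standard errors of log2 changes, or SD where said. The test was also run on simulated counts with the same spread for every gene and changes planted only in activated KO libraries. These settings are simpler than the data, so that run does not show how the test performs here. Members were all named; of each partner list, only genes among the 4 with the smallest p in a contrast could be. Alternatives were edgeR 4.0.16 and DESeq2 1.42.0 on recovered counts, other scalings, filters and pseudocounts, a receptor gene covariate, and each library left out.

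No pair of libraries agreed within sampling noise (chi-square per degree of freedom 2.19 to 52.5). Replicate numbers in the sample titles were taken to pair libraries where every same-numbered correlation of deviations from the group means is over 0.1. That was so in the Acly cohort for activation in WT (0.175 to 0.345) and KO (0.13 to 0.197) and for KO against WT in activated cells (0.172 to 0.313), and in the Pdha1 cohort for KO against WT in activated cells (0.271 to 0.68). Libraries with different numbers reached 0.161, -0.045, 0.136 and 0.238 in these comparisons, in that order. In each of these comparisons the lowest same-numbered value lay above the highest one between different numbers. What the numbers stand for was not established, and the main test used no block. Calls that changed with the number as a block are given beside it. Intervals and limits for counts cover counting error only.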

Additional observations from a re-analysis of the deposited data

How the results depend on the processing

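The count of members called was within 1.5 times of the reported one in 24 of 25 alternatives for activation in WT and in 24 of 25 in KO of the Acly cohort, but the direction of the calls moved with the scaling, from 4 higher and 1 lower in WT to 6 and 0 with TMM-style scaling and 3 and 4 with protein-coding scaling. For KO against WT, in either state and cohort, and for the interactions, 0 members were called in every alternative run. With the receptor gene covariate the activation counts were 0 in WT and 0 in KO of the Acly cohort. Hat1 then had a log2 change of 3.76 in WT and 2.90 in KO, Kat2a one of 2.66 and Kat7 one of 1.39 in WT, none past limma's test. The median over all genes in that WT fit was 0.92, against -0.61 without the covariate. The changes became 1.48 for Kat6b and 0.36 for Crebbp in WT, 1.90 for Kat6b, 0.66 for Kat8 and 0.23 for Crebbp in KO, and 0.094 for Kat6b in WT of the Pdha1 cohort. The receptor sums of the states do not overlap in the Acly cohort, so the covariate and activation cannot be told apart. In the Pdha1 cohort DESeq2 called 2 members for activation in WT, and the counts were 4 in WT and 2 in KO without both libraries that stood apart. Leaving out 1 library at a time gave 0 to 4 members for activation in WT, 4 being the count without WT activated replicate 3. It gave -0.67 to 0.076 for Ep300 in KO against WT of activated Acly cells and -0.18 to 1.80 for Kat6b in KO against WT of activated Pdha1 libraries; the cause was not tested.

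With the replicate number as a block, 8 members in place of 6 were called for activation in KO of the Acly cohort, Kat2b and Kat8 being added, and the block changed no other call of a member. For KO against WT in activated Acly cells the block called 5 genes in place of 2. Where the numbers did not meet the rule for pairing, the block called 0 members. Over all members, comparisons and alternatives, 153 of 2530 values had the opposite sign, and 3 of those belonged to called changes. Depth limits Kat2a, Kat5 and Kat2b, which were under 3 counts in 8, 6 and 4 of 24 libraries.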
